A study of Drosophila melanogaster with 8 samples.

Results

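Prospero (pros), nerfin-1, brain tumor (brat) and jumeau (jumu) encode proteins that move neural stem cell progeny of the fly towards differentiation. They were taken by gene symbol from the array annotation, which gave 1 probe for each, so 4 of 14569 probes and 4 of 11908 named genes. The study set ventral nerve cord cells of asense mutant embryos of Drosophila melanogaster against control cells on 8 arrays with 2 dyes. The material was described as neuroblasts and ganglion mother cells (GMCs) at embryonic stage 11, raised at 25 °C, with 50 to 100 cells lysed per sample. Mutant cells were ase1/ase1. Control cells, called wild type, were ase1/FM7-KrGFP, so they also carried 1 ase1 chromosome over a marked balancer.

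Neuroblasts are stem cells that divide unequally into another neuroblast and a GMC, which divides once more to give neurons or glia. Asense, a proneural factor of the basic helix-loop-helix class, is made in neuroblasts. Prospero, a homeodomain protein, and Brat, an RNA-binding translational repressor of the TRIM-NHL family, are made in the neuroblast and carried into the GMC by the adaptor Miranda. There Prospero enters the nucleus, shuts down neuroblast genes and turns on differentiation genes, and Brat blocks self-renewal. Nerfin-1 is a zinc finger protein of young neurons that is needed for axon guidance and for holding the differentiated state. Jumu is a forkhead transcription factor with roles in neuroblast polarity and asymmetric division.

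The arrays form 5 pairs of mutant and control RNA, numbered 1, 3, 4, 5 and 6. Pairs 1, 4 and 5 have an array a and an array b with the same source names, and these were averaged to 1 replicate. Whether both arrays of a pair carry the same RNA is not stated. Each value is a log ratio, read as log2 of mutant over wild type. That direction is likely but is not given in the labels: it was taken from asense itself, which lay between -6.50 and -4.81 on the 8 arrays, whichever dye the mutant carried. The mutant was in Cy5 on 3 arrays (pairs 1 and 3) and in Cy3 on 5 (pairs 4, 5 and 6). An exact 0 was taken as not measured, which left 8200 to 9276 probes per array. Nothing in the labels ties the pairs to separate embryos, and p-values then cover only the spread seen among these pairs, which may be technical. The material is bulk RNA, so fewer cells of a type and less of a transcript per cell cannot be told apart.

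Of the 4 genes, pros and nerfin-1 fell in mutant cells and brat and jumu did not pass the test. As a geometric mean over pairs, mutant signal was 41.6% of the wild-type signal for pros and 40.3% for nerfin-1. If the deposited logarithm were natural and not base 2, these shares would be 28.2% and 27.0%. For jumu and brat the averages were 75.7% and 77.8% on the log2 reading. A gene was called when limma, fitted across all 8295 features with a value in at least 4 pairs, gave a Benjamini-Hochberg adjusted p under 0.05. In that fit 18.3% of all features were called, made up of 11.3% lower and 6.97% higher, so the 2 lower calls among 4 genes stand against a background of 11.3%. A mean below 0, which all 4 genes had, was found for 57.4% of features. The 4 were chosen with earlier results of these data known.

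**Figure D1:**
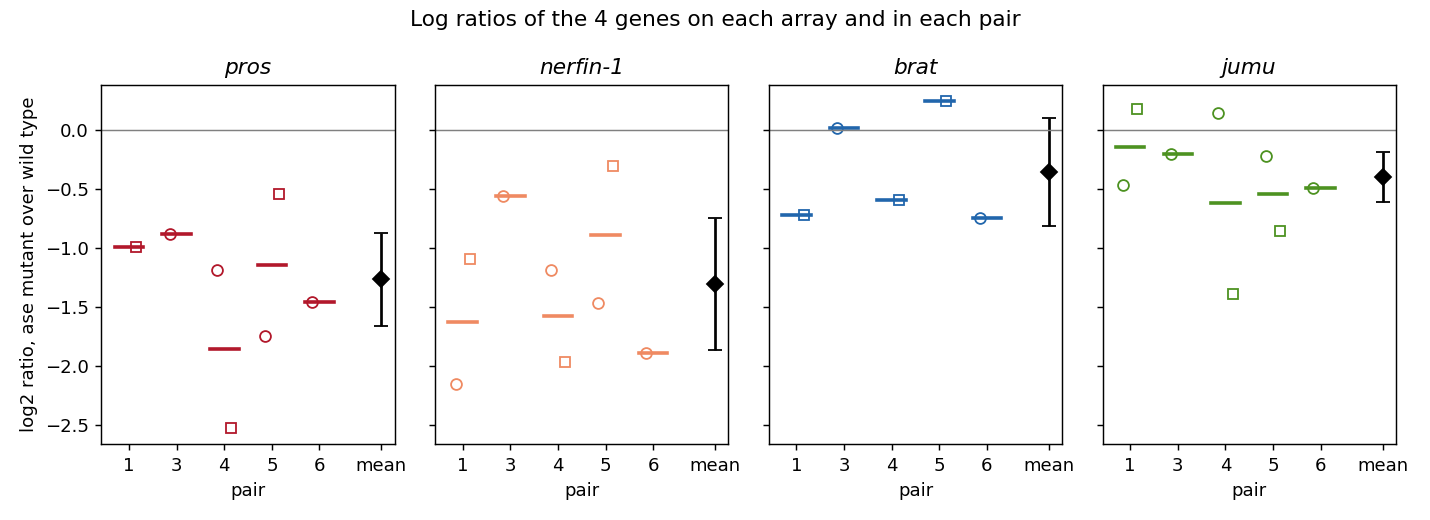
Log2 ratio of mutant over wild type (vertical axis) in the 5 pairs for pros, nerfin-1, brat and jumu. Open circles are array a, open squares array b, horizontal bars the pair values, and black diamonds the mean with its SD (n = 5). The pair values of pros and nerfin-1 all lie below -0.5, those of jumu lie between -0.62 and -0.15, and those of brat lie on both sides of 0.

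The log ratio of pros was -0.99 in pair 1, -0.88 in pair 3, -1.86 in pair 4, -1.15 in pair 5 and -1.46 in pair 6. Every pair was thus below 0, with pairs 4 and 6 the lowest. The mean was -1.27 ± 0.39 (SD, n = 5, limma adjusted p = 0.00401). Array a of pair 1 listed pros at 0, so the value of that pair rests on array b alone. On the 7 arrays that measured it, pros ranged from -2.53 to -0.55 and was below 0 on each. Among probes measured on at least 7 arrays, 9.07% were below 0 on every array that measured them.

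For nerfin-1 the log ratio was -1.63 in pair 1, -0.56 in pair 3, -1.58 in pair 4, -0.89 in pair 5 and -1.89 in pair 6. It was below 0 in each pair and on each of the 8 arrays, where it ranged from -2.16 to -0.31. The mean was -1.31 ± 0.56 (SD, n = 5, limma adjusted p = 0.00753). The spread of nerfin-1 over pairs was wider than that of pros, because pairs 3 and 5 lay nearer to 0. By mean log ratio nerfin-1 ranked 146 and pros 160 from the lowest of the 8295 features, and by p-value pros ranked 134 and nerfin-1 270. A mean of -1 or less together with a call was found for 3.1% of features.

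The log ratio of brat was -0.72 in pair 1, 0.02 in pair 3, -0.60 in pair 4, 0.24 in pair 5 and -0.75 in pair 6. Pairs 1, 4 and 6 were below 0 and pairs 3 and 5 were above it. The mean of -0.36 ± 0.46 (SD, n = 5) was smaller than the SD and did not pass (limma adjusted p = 0.190). Brat was measured on 5 of the 8 arrays, since array a of pairs 1, 4 and 5 listed it at 0. Each of its pair values therefore comes from 1 array, and with array a alone it could not be tested.

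For jumu the log ratio was -0.15 in pair 1, -0.21 in pair 3, -0.62 in pair 4, -0.54 in pair 5 and -0.49 in pair 6. All 5 pairs were below 0, as were 20.1% of all features measured in 5 pairs. The mean of -0.40 ± 0.21 (SD, n = 5) did not pass (limma adjusted p = 0.0650). The pair values hide a larger spread between arrays. In pair 1 jumu was at -0.47 on array a and 0.17 on array b, and in pair 4 it was at 0.14 on array a and -1.39 on array b. Over the 8 arrays its SD was 0.52, against 0.21 over the 5 pairs. Without array b of pair 4, which had the widest spread of log ratios of the 8 and was singled out after the data were seen, its mean was -0.25 (limma adjusted p = 0.304).

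Repeat arrays of 1 pair also differed for the genes that were called. Pros was at -1.19 on array a and -2.53 on array b of pair 4, and in pair 5 at -1.74 on array a and -0.55 on array b. Nerfin-1 was at -2.16 and -1.10 on arrays a and b of pair 1, at -1.19 and -1.97 in pair 4, and at -1.47 and -0.31 in pair 5. These gaps of 0.78 to 1.34 are of the size of the whole range over pairs, which was 0.97 for pros and 1.33 for nerfin-1, but none took either gene to 0. Over all probes the median gap between arrays a and b was smaller, 0.44 to 0.58 in the 3 pairs. Repeat arrays of 1 pair resembled each other no more than arrays of different pairs did. Across probes, which are not independent, the median correlation was 0.289 over 3 couples of repeat arrays and 0.386 over 25 couples from different pairs.

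Pros, nerfin-1 and jumu lay further below 0 where the mutant carried Cy3. The mean of the pairs with the mutant in Cy5 was -0.94 for pros, -1.09 for nerfin-1, -0.35 for brat and -0.18 for jumu. In the pairs with the mutant in Cy3 it was -1.49 for pros, -1.45 for nerfin-1, -0.37 for brat and -0.55 for jumu. All 4 genes thus had a mean below 0 in both orientations. A dye term in limma had an adjusted p of 0.948 for pros and jumu, 0.950 for nerfin-1 and 0.997 for brat. Unadjusted, its limma p was 0.105 for pros, 0.152 for jumu, 0.441 for nerfin-1 and 0.970 for brat. With so few pairs in each orientation the term can miss a dye effect on these genes. With that term pros (adjusted p = 0.00732) and nerfin-1 (adjusted p = 0.0201) kept their limma calls, at log ratios of -1.21 and -1.27.

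**Figure D2:**
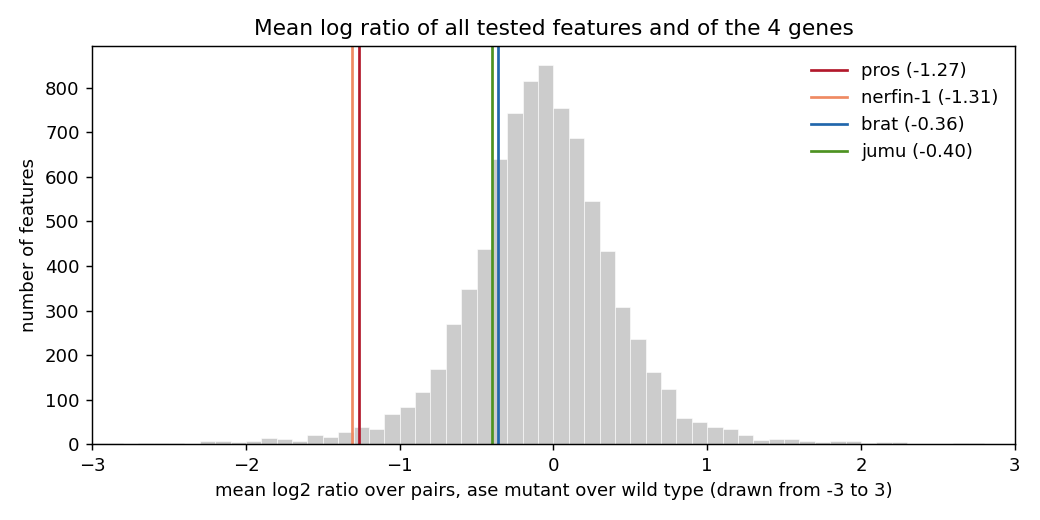
Number of features (vertical axis) by mean log2 ratio of mutant over wild type in bins of 0.1 (horizontal axis, drawn from -3 to 3), with vertical lines at the 4 genes. Pros (-1.27) and nerfin-1 (-1.31) lie in the lower tail, and jumu (-0.40) and brat (-0.36) lie within the lower side of the main body, whose median is -0.07.

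By their mean log ratios, the 4 genes were set into a lower and a higher couple after these values were seen. The order of the mean log ratios from the lowest was nerfin-1, pros, jumu and brat. Pros minus nerfin-1 was 0.04 ± 0.46 (SD, n = 5 pairs, exact sign-flip permutation p = 0.813), with pair values from -0.32 to 0.64. The highest was pair 1, where pros came from array b alone and nerfin-1 from both arrays. On array b of that pair pros was at -0.99 and nerfin-1 at -1.10. Brat minus jumu was 0.04 ± 0.51 (SD, n = 5 pairs, exact sign-flip permutation p = 0.938), with pair values from -0.58 to 0.78. In pairs 1, 4 and 5 brat came from array b alone and jumu from both arrays. Neighbours within each couple thus differed by less than their spread. The pair values run far to both sides of 0, so the test does not show that they responded alike.

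Between the couples the gap was larger than the spread. The couples were formed from these same means, so some gap between them was built in. Pros was lower than brat by 0.90 on the log2 scale (difference -0.90 ± 0.45) and lower than jumu by 0.87 (difference -0.87 ± 0.25). Nerfin-1 minus brat was -0.95 ± 0.23, and nerfin-1 minus jumu was -0.91 ± 0.55 (SD, n = 5 pairs each). In each of these 4 comparisons the difference of the pair values was below 0 in 5 of 5 pairs. The exact sign-flip permutation p was 0.0625, two-sided, the smallest that 5 pairs allow, and 0.0938 after Benjamini-Hochberg adjustment over 6 couples. This exact test therefore cannot take a difference under the threshold with 5 pairs. The differences from brat do not always compare the same arrays. In pairs 1, 4 and 5 brat came from array b alone, while nerfin-1 averaged both arrays, as did pros in pairs 4 and 5. With array b in pairs 1, 4 and 5, pros minus brat was -0.92 and nerfin-1 minus brat -0.80 (exact sign-flip permutation, adjusted p = 0.188 each). Repeat arrays did not all keep the order: on array b of pair 5 jumu (-0.86) was lower than pros (-0.55) and nerfin-1 (-0.31).

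Few named genes were closer to pros over the pairs than nerfin-1 was. Likeness was measured as the root mean square difference of the log ratios over the 5 pairs, among 6575 named genes measured in all 5. Nerfin-1 was the 18th nearest gene to pros at 0.41, and pros the 10th nearest to nerfin-1. Brat ranked 1165 and jumu 789 from pros. Brat and jumu differed from each other by 0.46, close to the value for pros and nerfin-1, but jumu ranked 883 from brat. The measure takes in the mean itself, so genes of like mean tend to lie near each other. Genes with a small mean have many near neighbours, so ranks from different genes are not on one scale.

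The nearest genes to pros were Spindly (0.16), which encodes a dynein adaptor of the mitotic kinetochore, IFT20 (0.28), which encodes an intraflagellar transport protein, and CG4424 (0.29). Spindly had a mean log ratio of -1.23, IFT20 of -1.44 and CG4424 of -1.20, and each fell in limma (adjusted p = 0.00306, 0.00148 and 0.00782). The nearest to nerfin-1 were CG14464 (0.18), CG4424 (0.30) and the phosphatase gene EDTP (0.31). CG14464 followed nerfin-1 pair by pair, with -1.68, -0.51, -1.38, -0.71 and -2.19 in pairs 1, 3, 4, 5 and 6. The nearest to brat were the nucleolar protein gene Nopp140 (0.12), the actin regulator gene cib (0.18) and the Slit receptor gene robo1 (0.19), none of which passed in limma (adjusted p = 0.184, 0.460 and 0.0719). The nearest to jumu were the kinase gene cdi (0.06), CG6550 (0.09) and trithorax (trx, 0.10). Of these CG6550 fell, at -0.47 (limma adjusted p = 0.0482), and cdi and trx were at -0.36 each without passing.

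**Figure D3:**
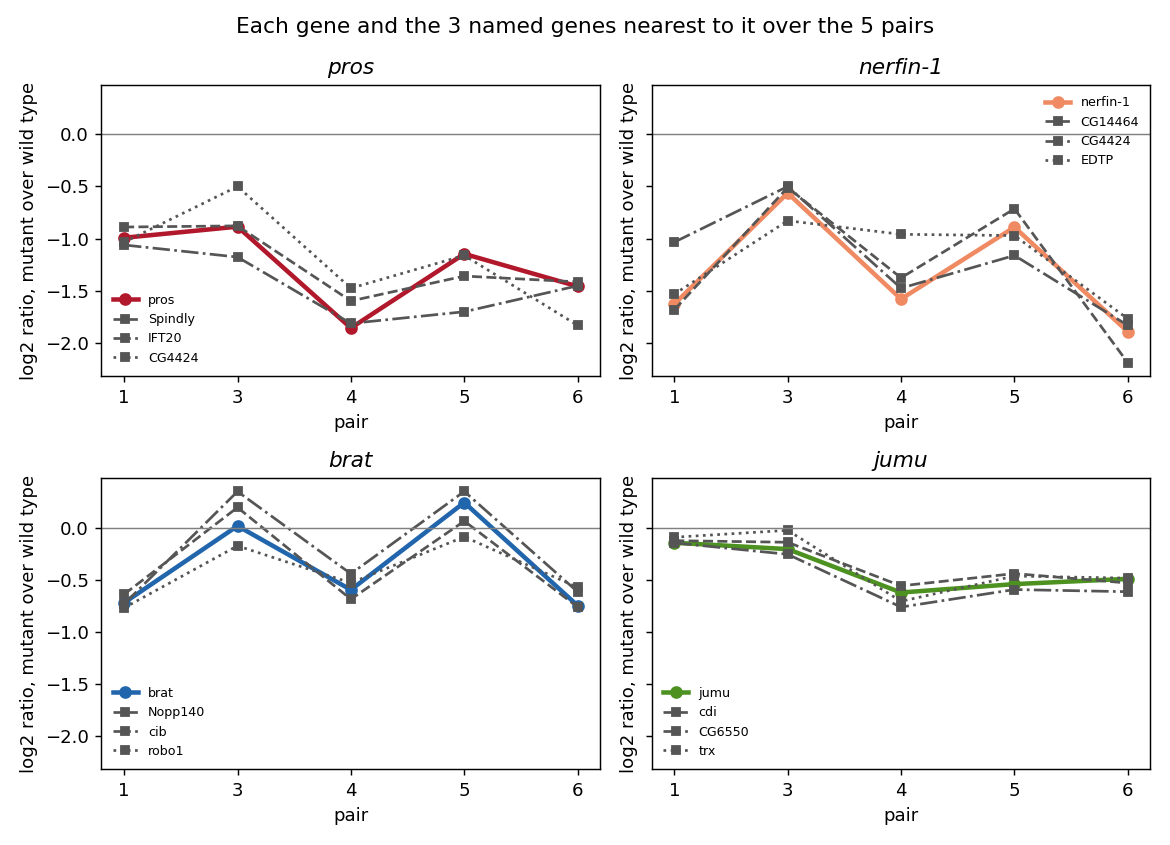
Log2 ratio of mutant over wild type (vertical axis) in pairs 1, 3, 4, 5 and 6 for each of the 4 genes (coloured) and the 3 named genes nearest to it (grey). Lines only join the values of a gene, since pairs have no order. Pros and its neighbours lie between -1.86 and -0.50, and brat and its neighbours come nearest to 0 or rise above it in pairs 3 and 5.

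Genes that work with these 4 were described from lists. Beside each list stands the background: 18.3% of all features were called (11.3% lower and 6.97% higher), and the median of all features was -0.07. Among the other differentiation factors, 1 of 5 fell. It was lola, a BTB zinc finger gene, at -0.72 ± 0.11 (SD, n = 5, limma adjusted p = 0.00753). That value averages several probes, and with their median it was -0.79 (limma adjusted p = 0.00777). Single probes of lola are not reported here. Hey, a Notch-responsive repressor gene of newborn neurons, had a mean of -1.23, but its pairs ran from -3.26 to 0.62 (limma adjusted p = 0.151). The homeobox gene eve was at -0.96 (limma adjusted p = 0.0513) with all 5 pairs below 0. The other genes of the list, zfh1 (-0.40) and ftz (-0.001), did not pass (limma adjusted p = 0.572 and 0.997). The list median was -0.72, which is the value of lola itself. By pair the list median was -0.69, 0.62, -0.34, -0.85 and -1.13 in pairs 1, 3, 4, 5 and 6. The list as a whole was thus not below 0 in pair 3.

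In the machinery that places Prospero and Brat in the daughter cell, 1 of 16 tested genes fell and 1 rose, with a median of -0.20. Miranda (mira), the carrier of both proteins, fell. Its log ratio was -0.51 in pair 1, -0.34 in pair 3, -1.25 in pair 4, -0.69 in pair 5 and -0.66 in pair 6, which made a mean of -0.69 ± 0.34 (SD, n = 5, limma adjusted p = 0.0217). By pair values mira, like pros, was lowest in pair 4 and nearest to 0 in pair 3. The low of pros in pair 4 rests on array b, since array a of pair 4 (-1.19) was above pair 6 (-1.46). The mira call was lost without pair 1 (limma adjusted p = 0.0503), pair 4 (0.0601) or pair 5 (0.0724). It was also lost without array b of pair 4 (mean -0.49, limma adjusted p = 0.0574) and with array a only (mean -0.46, 0.0928). The polarity kinase gene aPKC rose by 0.74 ± 0.53 (SD, n = 5, limma adjusted p = 0.0396), and lost the call without any 1 of pairs 3, 4, 5 and 6 (adjusted p from 0.0554 to 0.119). Not past the test were insc (-0.03), which orients the division, stau (-0.02), which carries pros RNA, and pon (-0.62) and numb (-0.34) of the Notch inhibitor branch.

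Of 12 tested neuroblast genes other than asense, among them genes that Prospero is known to repress, 2 fell and 1 rose, with a median of -0.22. The lower ones were mira and the zinc finger gene klumpfuss (klu), which was at -1.21 ± 0.89 (SD, n = 5, limma adjusted p = 0.0306) and lost the call without pair 1 (0.0639), pair 3 (0.0733) or pair 4 (0.0871). Dichaete (D), a Sox gene of neuroblasts, rose by 1.31 ± 0.55 (limma adjusted p = 0.00753). Dpn (-0.44), insc (-0.03) and CycE (-0.09), which are only some of the Prospero targets, were not past the test. None of 8 cell cycle exit genes and their opponents passed in limma. The nearest there were the retinoblastoma family genes Rbf (0.53, adjusted p = 0.0575) and Rbf2 (0.35, adjusted p = 0.0795), and the list median was -0.06.

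Of 7 tested partners and targets of Brat, 2 rose and 0 fell, with a median of 0.11. Pumilio (pum), an RNA-binding repressor that acts with Brat on hunchback RNA, was at 0.78, 1.31, 1.05, 0.98 and 0.40 in pairs 1, 3, 4, 5 and 6. All 5 were above 0, while brat itself was on both sides, and the mean of pum was 0.90 ± 0.34 (SD, n = 5, limma adjusted p = 0.00917). Zelda (zld), a Brat target that encodes a zinc finger activator, rose by 0.74 ± 0.50 (limma adjusted p = 0.0365). It lost the call without pair 1, 3, 4 or 5 (adjusted p from 0.0586 to 0.0847). Hunchback (hb, -0.17) and dpn (-0.44), also Brat targets, did not pass.

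Both tested relatives of Brat in the TRIM-NHL family fell. The gene mei-P26, which encodes a growth inhibitor known from the ovary, was at -1.20, -1.38, -0.99, -1.60 and -1.67 in pairs 1, 3, 4, 5 and 6. Every pair was below the lowest pair of brat (-0.75), and the mean was -1.37 ± 0.28 (SD, n = 5, limma adjusted p = 0.00148). The gene wech was at -0.71 ± 0.45 (SD, n = 5, limma adjusted p = 0.0330), and lost the call whichever pair was left out (adjusted p from 0.0558 to 0.0743). The nerfin-1 relative nerfin-2 was measured in fewer than 4 pairs.

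Of 9 tested forkhead genes other than jumu 2 fell, with a median of -0.22. They were fd19B at -1.45 ± 0.54 (SD, n = 5, limma adjusted p = 0.00476) and CHES-1-like at -0.96 ± 0.71 (SD, n = 5, limma adjusted p = 0.0370). Jumu and CHES-1-like are known to act together in heart precursors of the fly. CHES-1-like ranged from -1.94 in pair 5 to -0.12 in pair 1. Jumu too was nearest to 0 in pair 1, but was lowest in pair 4 (-0.62). The limma call of CHES-1-like was lost without pair 3 (adjusted p = 0.0578), pair 4 (0.115), pair 5 (0.0964) or pair 6 (0.0691). Of 8 tested axon guidance genes, among them genes that need nerfin-1, 1 fell and 0 rose, with a median of 0.02. It was the G protein gene Galphao, at -0.52 ± 0.29 (limma adjusted p = 0.0413), whose call was lost without pair 1, 4, 5 or 6 (0.0705 to 0.127) and after centring (0.0617).

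**Figure D4:**
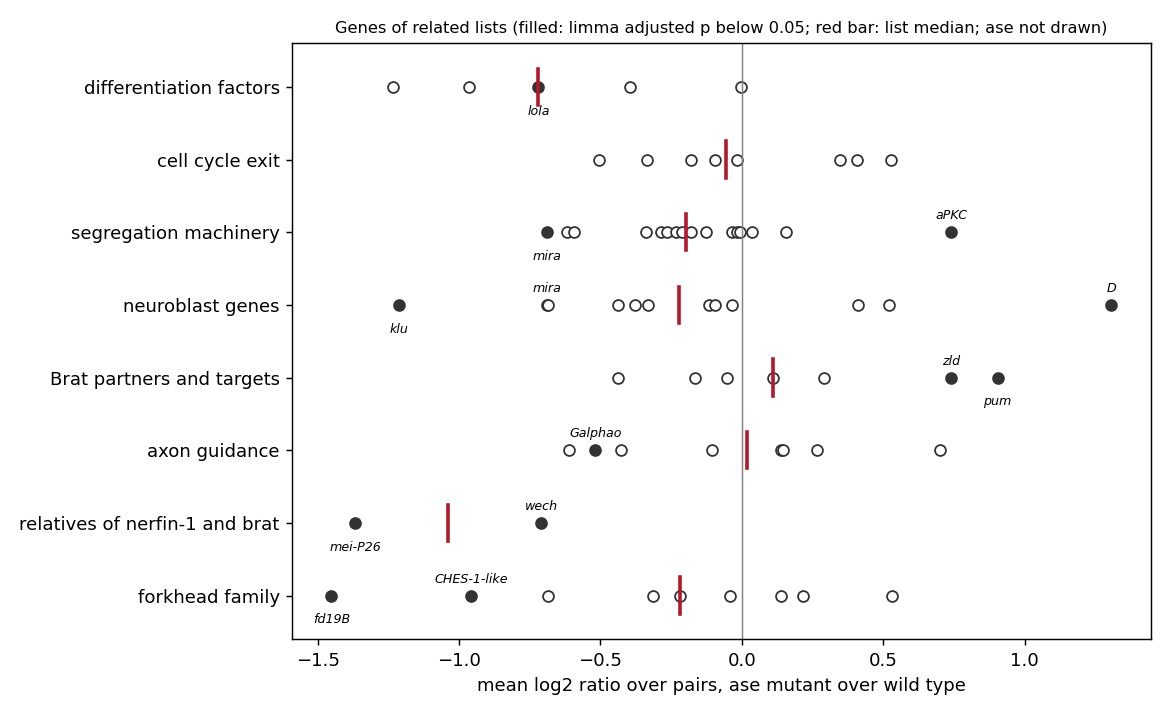
Mean log2 ratio of mutant over wild type (horizontal axis) for the tested genes of 8 related lists, 1 list per row. Filled points passed limma at an adjusted p under 0.05, open points did not, and red bars are list medians, and asense (-6.06) is neither drawn nor counted in them. Both relatives of brat lie below -0.7, and the called genes among Brat partners and targets lie above 0.7.

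Markers of other cells also moved. Over all features 11.3% were called lower and 6.97% higher in limma, the background for the counts that follow. In limma 2 of 7 neuroblast markers other than asense were lower (mira and klu), and 2 of 3 tested neuron markers of 12 listed (elav and Appl). Markers of mature neurons were rarely measured, and brp, VGlut and Gad1 were listed at 0 on all 8 arrays. The medians of the tested neuroblast and neuron markers were -0.11 and -0.43, and the neuron median was below 0 in each pair (-0.63 to -0.21). Of 4 tested glial markers of 9 listed 3 were lower (median -1.40), of 4 tested mesoderm markers of 7 listed 2 were lower (median -1.15), and of 4 tested hemocyte markers of 6 listed 2 were lower and 1 higher (median -0.42). Of 4 tested ectoderm markers of 5 listed 3 were higher (median 0.59), and limma called 0 of 3 tracheal and gut markers (median -0.68). Most of these calls depended on single pairs. Both neuron calls were lost in limma whichever pair was left out. Leaving out 1 pair left 0 to 2 neuroblast markers, 1 to 3 glial markers, 0 to 3 mesoderm markers (0 without pair 5) and 1 hemocyte marker lower, and 0 to 2 ectoderm markers higher (0 without pair 5). Without array b of pair 4 the glial and mesoderm calls were lost. The files hold ratios only, so the level of a marker in either genotype was not analysed here. The part of cell mixture in the values of pros and nerfin-1 was not tested.

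**Figure D5:**
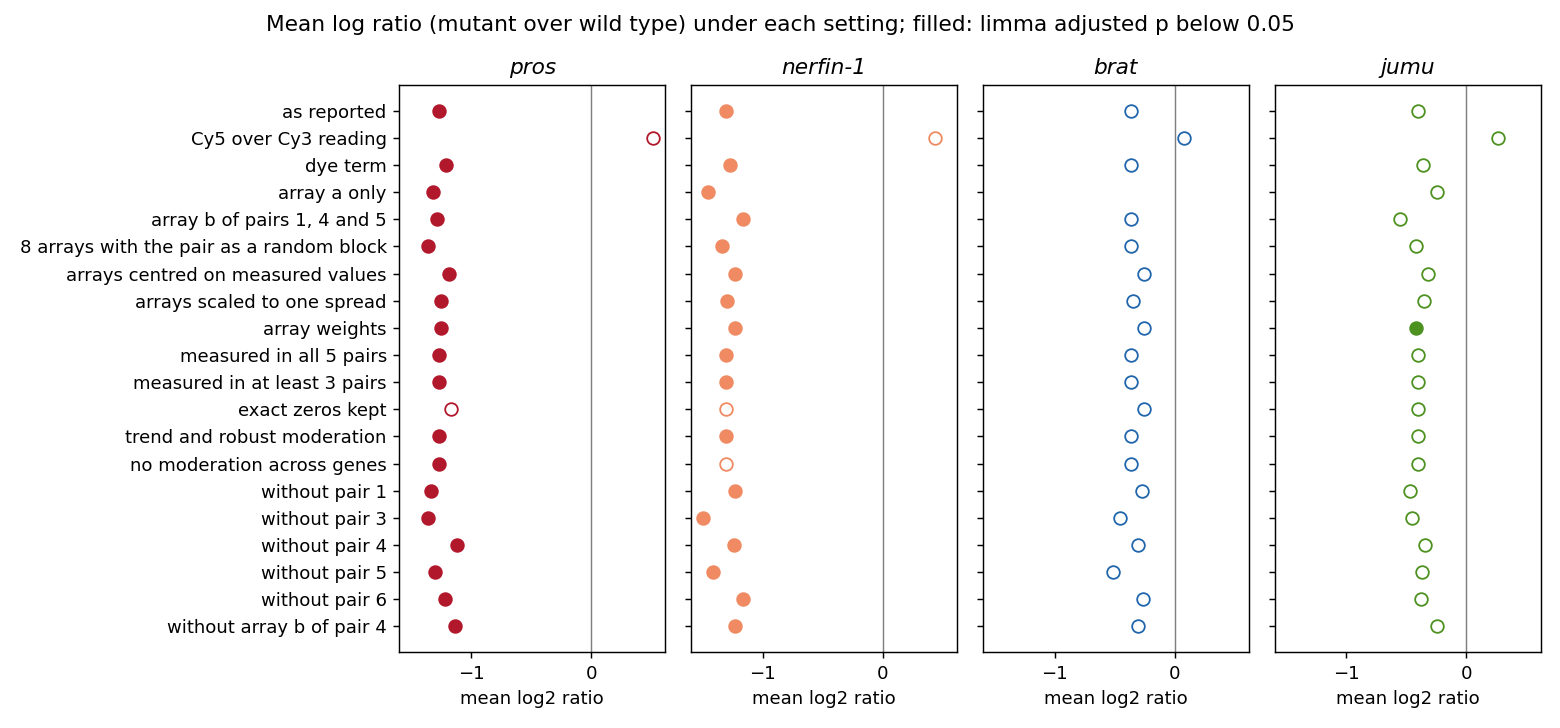
Mean log2 ratio of mutant over wild type (horizontal axis) of the 4 genes under the processing settings (rows). The threshold of 0.01, each probe on its own and the median over probes are not drawn. Filled points have a limma adjusted p under 0.05, or that of an unmoderated fit in the row without moderation. Apart from the reading as Cy5 over Cy3, pros stays between -1.36 and -1.12 and nerfin-1 between -1.50 and -1.16, and brat has no point for array a only.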

How the data were processed

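The authors deposited a log ratio of the 2 channels for each of 14569 probes on 8 arrays, read here as log2. Per the file, no base, normalization or centring is stated (not given in the sources used here); the largest size, 7.43, exceeds the 4.82 that log10 of a 16-bit scan allows. The column medians were 0, and those of the measured values lay between -0.18 and -0.02. Spot intensities were not used here, so precision is limited by the number of arrays. Exact zeros (36.3% to 43.7% per array) were taken as not measured.

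Probes were named through a platform annotation updated with a gene table of Release 6 plus ISO1 MT. One name was found for 12658 probes, several for 96 and none for 1815. Probes of the same gene were averaged, then arrays a and b of a pair. A two-sided limma test (version 3.58.1, R 4.3.3; lmFit, eBayes) set each mean over pairs against 0, and Benjamini-Hochberg adjustment ran over all 8295 features. The procedure was tested on simulated data. Differences between 2 of the genes were tested by exact sign flips over pairs.

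The genes and lists were chosen with earlier results of these data known. Genes named are the 4, their 3 nearest each, and in each list those past the test (or the 2 with the smallest p); others are named as values, chosen after they were seen. Marker lists were treated as counts. Alternatives changed direction, dye term, repeat arrays, centring, scaling, weights, missing values, moderation, probe averaging, threshold and the pairs included.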

Additional observations from a re-analysis of the deposited data

How the results depend on the processing

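Pros kept its call in 20 of 22 alternative settings, nerfin-1 in 19 of 22, and both stayed below 0 in all but 1. Settings of probe averaging and of pairs required could not move these means, as both genes had 1 probe measured in all 5 pairs. The threshold of 0.01 reused the main fit. Pros was not called with exact zeros kept as values (-1.17, adjusted p = 0.0806), and nerfin-1 was not called with zeros kept (-1.31, adjusted p = 0.0727) or without moderation across genes (-1.31, adjusted p = 0.0634). Jumu passed with array weights (-0.42, adjusted p = 0.0376), and its other settings apart from the Cy5 over Cy3 reading gave up to 0.350. Brat passed in none of 21. Read as Cy5 over Cy3 the means were 0.52 for pros, 0.43 for nerfin-1, 0.080 for brat and 0.26 for jumu, and limma called 0 features (117 at an unadjusted p below 0.05), 0 higher and 0 lower; asense was then at 1.34. That reading also turned lola (0.18), Rbf2 (-0.14), mira (0.35), aPKC (-0.17), klu (0.38), D (-0.59), pum (-0.067), zld (-0.29), Galphao (0.34), mei-P26 (0.34), wech (0.22), fd19B (0.32) and CHES-1-like (0.70).

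Of the 13 listed genes past the test, asense, lola and mei-P26 kept the call in each of 19 other settings, 10 lost it in at least 1, and 0 changed sign apart from the Cy5 over Cy3 reading. These settings did not take each probe on its own. Pros minus nerfin-1 was -0.040 with array a only, -0.12 with array b, and between -0.11 and 0.13 without 1 pair. With array b, pros minus jumu was -0.73 (exact sign-flip permutation, adjusted p = 0.25) and nerfin-1 minus jumu -0.61 (exact, adjusted p = 0.281). Brat minus jumu was between -0.15 and 0.19 without 1 pair.

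Limma called 1517 features (578 higher, 939 lower). The count was 474 with array a only (189 higher, 285 lower), 345 with zeros kept (141 and 204), 466 without moderation (178 and 288), 372 at a threshold of 0.01 (135 and 237), and 809 without array b of pair 4 (331 and 478). Leaving out 1 pair gave 596 to 1266 (239 to 439 higher, 357 to 827 lower), the lowest without pair 5. Lower calls made up 61.9% of the total, and 46.8% with arrays centred on their measured values (805 higher, 707 lower), where the median of all features was 0.01; pros was then at -1.18 and nerfin-1 at -1.23, both called. The cause of these changes was not tested. The log base and the number of pairs limit every value.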

Other observations

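Neighbours here are the nearest tested genes in chromosome order, so untested genes may lie between. Calls among them stand against the 18.3% of all features called in limma, and an excess over that share was not tested. The 4 tested genes nearest to pros on chromosome arm 3R had mean log ratios from -0.01 to 0.74. Nearest on either side, CG5214 was at 0.74 (limma adjusted p = 0.147) and the kinase gene KP78a rose by 0.62 (limma adjusted p = 0.0452). Next to nerfin-1 on arm 3L, mat was at -0.43 and Glut1, a glucose transporter gene, at -0.11, neither past the test, while CG13907, the second on one side, fell by 0.72 (limma adjusted p = 0.0168). Next to brat on arm 2L, CG17568 rose by 0.73 (limma adjusted p = 0.0174) and DCTN6-p27 was at 0.05. Next to jumu on arm 3R, CG12592 was at -0.23 and the regulatory factor X gene Rfx at 0.13, neither past the test.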
